A study of Mus musculus with 9 samples.

Results

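The renin-angiotensin system was followed in whole embryonic kidneys through 9 genes out of the 24138 loci of a bulk RNA-seq table. They are *Ren1* and *Akr1b7*, which mark renin cells, *Agt*, the precursor of all angiotensins, the peptidases *Ace*, *Enpep* and *Mme*, the angiotensin II receptors *Agtr1a* and *Agtr2*, and *Atp6ap2*, the (pro)renin receptor. The genes were found by symbol and were chosen by what they do and with the FPKM of all 9 libraries already in view, so their own values and differences are given as a description, with no test. Kidneys were taken in mid-gestation, at embryonic day E15.5, from 3 crosses, and RNA of 3 kidneys of each of 3 genotypes was sequenced, 1 library per kidney. WT kidneys were *Ntn1*fl/fl, with both *Ntn1* alleles floxed and no Cre. HET kidneys were *Foxd1*GC/+;*Ntn1*fl/+, with 1 floxed *Ntn1* allele, and MUT kidneys were *Foxd1*GC/+;*Ntn1*fl/fl, with both alleles floxed. HET and MUT share a GFP-Cre insertion in 1 copy of *Foxd1*, which recombines floxed alleles in *Foxd1*-expressing stromal progenitors and their descendants and not in the whole kidney. WT kidneys lack that insertion, so in any comparison with WT the insertion and the loss of *Ntn1* cannot be told apart. Which kidneys came from the same embryo or litter is not stated, so errors and p-values measure the spread between these libraries.

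Renin is an aspartyl protease that cuts angiotensinogen, the product of *Agt*, into angiotensin I. Angiotensin-converting enzyme then makes angiotensin II, which acts through its type 1 and type 2 receptors. In the adult kidney renin comes from juxtaglomerular cells at the entrance of the glomerulus, whereas in the embryo it is made more widely, in the walls of the larger renal vessels. These cells descend from *Foxd1*-expressing stromal progenitors, as do the smooth muscle cells and pericytes around the vessels.

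Values are FPKM, fragments per kilobase of transcript scaled to the size of the library, as the authors computed them, so levels can be compared between genes per length. Per library the FPKM added up to 453753 to 545598, and read numbers are unknown. *Ntn1*, the targeted gene, was at 17.8 to 28.9 FPKM in WT, 12.0 to 16.5 in HET and 10.8 to 16.5 in MUT libraries. Its WT and Cre-carrying libraries did not overlap, while HET and MUT overlapped, with means of 13.6 and 12.8 FPKM. These values are for the whole locus in whole kidneys, so they do not measure the loss of *Ntn1* in the stroma. By immunostaining, the paper found almost no Ntn1 protein around the nephron progenitors of MUT kidneys. It also describes weaker *Ntn1* RNA in the proximal tubule. The kidney genes *Six2*, *Pax2*, *Pax8* and *Wt1*, the most abundant of 8 listed, were at 33.1 FPKM or more in all 9 libraries. The rest, *Ret*, *Lhx1*, *Gata3* and *Foxd1*, went down to 7.53, 16.4, 17.2 and 20.2 FPKM. *Xist*, which is transcribed from the inactive X chromosome, was at 187 FPKM in HET-3 and 173 FPKM in MUT-1 and at most 1.25 FPKM in the other 7 libraries. HET-2 stood apart by liver transcripts, with 10 liver genes summing to 847 FPKM against 33.9 to 59.7 FPKM elsewhere.

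The 9 genes spanned a wide range of levels, from *Ren1* at a mean of 106.6 FPKM over the 9 libraries to *Agt* at 0.529 FPKM. *Enpep* followed *Ren1* at 51.6 FPKM, then *Atp6ap2* at 45.7, *Agtr2* at 33.4, *Mme* at 21.4, *Akr1b7* at 14.7, *Ace* at 6.18 and *Agtr1a* at 5.56 FPKM. Within every library *Ren1* exceeded *Enpep*, and *Enpep* exceeded *Atp6ap2*, although the ranges of these neighbours over the 9 libraries overlapped. *Atp6ap2* lay above *Agtr2*, *Akr1b7* above *Ace* and *Agtr1a* above *Agt* without overlap. *Mme* was above *Akr1b7* in 6 of 9 libraries and *Ace* above *Agtr1a* in 7 of 9, so the order of these pairs did not hold beyond their spread.

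**Figure D1:**
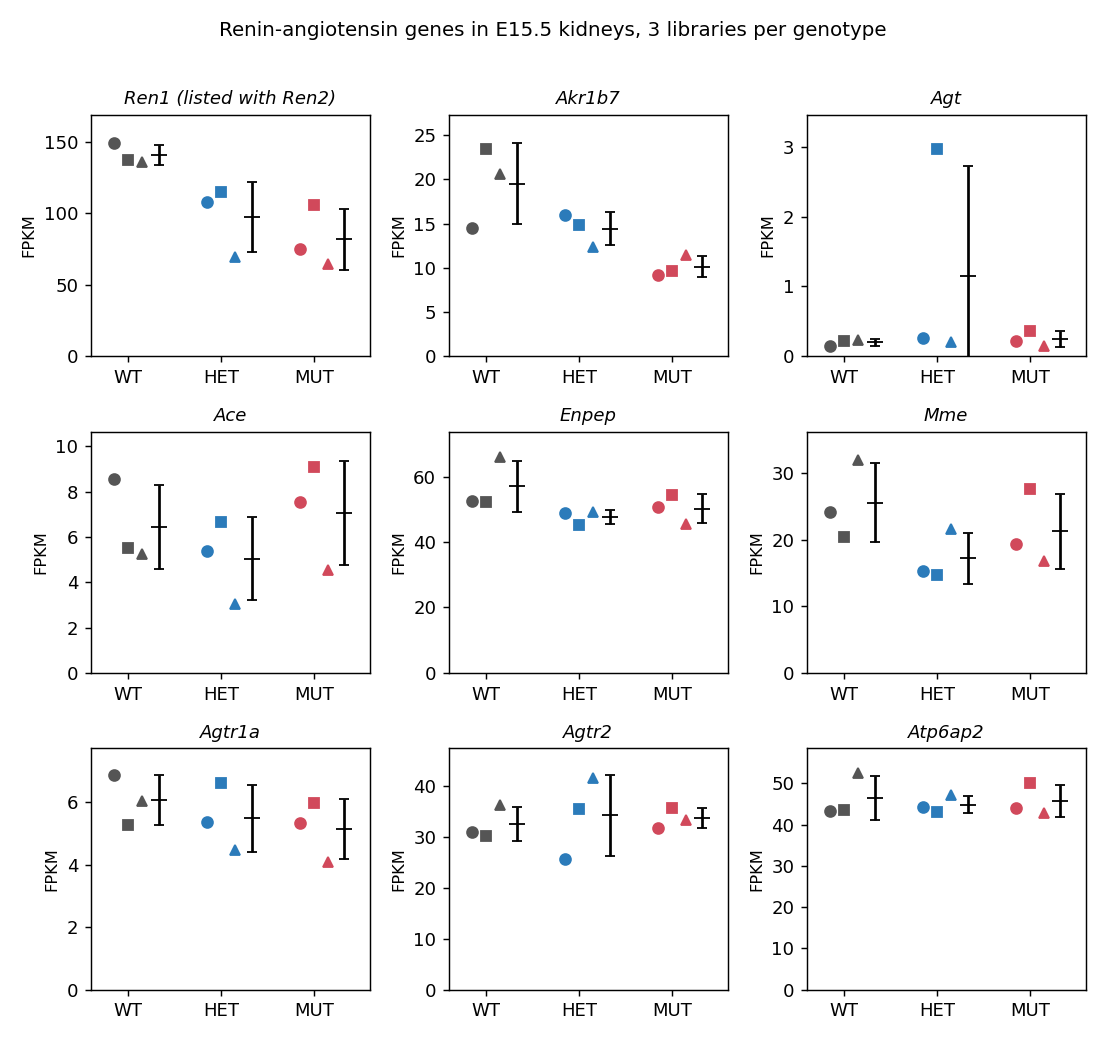
FPKM (vertical axes, from 0) of the 9 genes in the 3 WT, 3 HET and 3 MUT libraries. Circles, squares and triangles are libraries 1, 2 and 3 of a genotype, horizontal ticks are means and bars are s.d. (n=3), with the bar of *Agt* in HET clipped at 0. *Ren1* was between 136 and 149 FPKM in WT and at 115 FPKM or less in the other 6 libraries, *Akr1b7* was lowest in the 3 MUT libraries, and 1 HET library stood apart for *Agt*.

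*Ren1*, which encodes renin, was lower in all 6 libraries with the *Foxd1* insertion than in the 3 WT libraries. With libraries in the order of their numbers, the FPKM was 149, 137 and 136 in WT, 108, 115 and 69.4 in HET, and 75.2, 106 and 64.3 in MUT, an order kept for the other genes. The means were 140.7±7.26 in WT, 97.4±24.5 in HET and 81.7±21.4 in MUT (mean±s.d., n=3 each). WT libraries were close together, with a coefficient of variation of 5.16%, against 25.2% in HET and 26.2% in MUT. The ratio of means was 0.693 for HET to WT and 0.581 for MUT to WT, and the differences in log2(FPKM + 1) were -0.56±0.18 and -0.81±0.18 (difference±s.e.). Both comparisons use the same 3 WT libraries. HET and MUT overlapped, with a ratio of 0.838 and a log2 difference of -0.25±0.22 that ranged from -0.09 without MUT-3 to -0.47 without HET-3. In whole-kidney RNA, fewer renin cells and less renin RNA per cell cannot be told apart.

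Several values stood beside the *Ren1* result. *Xist* was present in HET-3 and MUT-1, whose *Ren1* was among the 3 lowest values, while MUT-3, at the lowest *Ren1* value of all, had *Xist* at 0.0377 FPKM. Without the *Xist* libraries the log2 difference in *Ren1* was -0.76 for MUT against WT, -0.43 for MUT against HET and -0.33 for HET against WT. The first equals the value without MUT-1 alone and the last that without HET-3 alone. The summed FPKM of 11 mural and smooth muscle markers was 245 to 272 in WT, 264 to 316 in HET and 246 to 278 in MUT, and that of 9 endothelial markers was 249 to 262, 237 to 247 and 241 to 265. Both sums overlapped between WT and MUT, while the endothelial sum, like *Ren1*, was lower in every HET than in every WT library. Within the mural list the smooth muscle genes *Actg2*, *Myh11*, *Cnn1* and *Des*, picked out here after their values were seen, were higher in each HET library than in any WT or MUT library, with *Actg2* at 8.24 to 16.3 FPKM in HET, 3.16 to 4.79 in WT and 4.06 to 5.55 in MUT. The other 7 mural genes overlapped between HET and WT, and over the 10 tested, 5 had a positive and 5 a negative difference, with *Rgs5* at -0.36 and *Notch3* at -0.26. Sums of 10 proximal tubule and 8 podocyte markers, in the order of library numbers, were set beside *Ren1* after their values were seen. The proximal tubule sum was 163, 149, 187 FPKM in WT, 153, 167, 105 in HET and 135, 194, 112 in MUT. The podocyte sum was 264, 176, 193 FPKM in WT, 180, 196, 162 in HET and 234, 236, 162 in MUT. Both ranked the libraries as *Ren1* did within HET and within MUT, but not within WT. The part of these values in the *Ren1* differences was not tested.

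The *Ren1* locus of the table lies on chromosome 1 from 133350566 to 133360323 (mm10, plus strand) and joins the names *Ren1* and *Ren2*. *Ren2* is a near-identical duplicate of *Ren1* that some mouse strains carry and C57Bl6/J, the background given in the study's methods for its lines, lacks. A stretch of 28 bases just upstream of the RefSeq start at 133350674 (GRCm38.p6, chr1:133350634-133350661, plus strand) is shown because it holds the TATA box letters TATAAA of the most abundant of the 9 genes. Capitals mark the match.

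Ren1: tacatggtgtgTATAAAagaaggctcag

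The match lies 29 to 24 bases before the start on the plus strand. In RefSeq promoters, 12.4% of 32851 windows of 250 bases before a start hold TATAAA on either strand. The *Ren1* window held neither TGACG, a part of the cAMP response element (17.8% of windows), nor AGGTCA, a nuclear receptor element (14.0%). GENCODE places the first exon of *Ren1* further upstream, so that 164 bases of the window fall in that exon.

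*Akr1b7*, an aldo-keto reductase found in renin cells and in the adrenal cortex, was lower in all 3 MUT libraries than in any other library. It was at 14.5, 23.4 and 20.6 FPKM in WT, 16.0, 14.8 and 12.4 in HET, and 9.19, 9.67 and 11.5 in MUT. MUT libraries did not overlap HET or WT, while WT-1 lay below 2 HET libraries. Within genotypes *Akr1b7* did not follow *Ren1* throughout. WT-1 had the highest *Ren1* (149 FPKM) and the lowest *Akr1b7* of WT, and MUT-3 the lowest *Ren1* (64.3 FPKM) and the highest *Akr1b7* of MUT. Within HET both were lowest in HET-3. The 2 genes are therefore not read as 1 signal of renin cells. The means were 19.5±4.57 in WT, 14.4±1.86 in HET and 10.1±1.21 in MUT. The ratio of means was 0.519 for MUT to WT, 0.703 for MUT to HET and 0.739 for HET to WT, and the log2 differences were -0.86±0.17, -0.47±0.13 and -0.39±0.17. Leaving out WT-1 took the difference between MUT and WT to -1.05, and leaving out WT-2 took the difference between HET and WT to -0.25, with the direction kept. Without the *Xist* libraries the 3 differences were -0.80, -0.51 and -0.30, and the first and last again equal the values without MUT-1 alone and without HET-3 alone.

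The paralogs of *Akr1b7* showed no such order of genotypes. *Akr1b3*, which encodes aldose reductase, was at 55.0±11.5 FPKM in WT, 59.9±4.95 in HET and 55.7±12.4 in MUT. *Akr1b8* was at 8.97±2.09, 10.1±0.164 and 8.44±2.06 FPKM, and *Akr1b10* at 11.5±2.37, 11.7±1.05 and 10.2±1.35 FPKM. For all 3 paralogs each pair of genotypes overlapped. Their summed FPKM was 57.4, 87.8 and 81.3 in the WT libraries, 88.4, 77.9 and 79.0 in HET and 64.6, 66.3 and 92.1 in MUT, so WT-1 was lowest within WT and MUT-3 highest within MUT, as for *Akr1b7*. Reads may be shared between these related genes, and how the authors' counting divides them is not given in the sources used here. Of 10 adrenal cortex markers, 8 were at 0.921 FPKM or less in every library, among them *Star* (at most 0.377), *Cyp11a1* (at most 0.491) and *Cyp21a1* (at most 0.102). *Mc2r*, the receptor gene for adrenocorticotropic hormone, was at 1.79 to 3.01 FPKM. The 10 markers summed to 21.0 to 28.3 FPKM in WT, 25.7 to 26.9 in HET and 22.6 to 32.7 in MUT, most of it from *Fdx1*, which many tissues express.

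*Akr1b7* lies on chromosome 6 from 34412362 to 34423137 (mm10, plus strand). The 222 bases of its RefSeq promoter window that lie before the first GENCODE exon (GRCm38.p6, chr6:34412112-34412333, plus strand) are shown for comparison with *Ren1*, since both genes were lower in MUT than in WT. Capitals mark a match to AGGTCA on the minus strand, 248 to 243 bases before the start.

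Akr1b7: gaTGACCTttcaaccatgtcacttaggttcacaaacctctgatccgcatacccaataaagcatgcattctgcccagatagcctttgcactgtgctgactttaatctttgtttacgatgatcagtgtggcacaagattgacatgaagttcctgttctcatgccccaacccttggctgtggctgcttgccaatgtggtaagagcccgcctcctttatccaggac

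The letters TATAAA and TGACG were not found in the *Akr1b7* window of 250 bases. RefSeq windows were at hand for 8 of the 9 genes, all but *Agtr1a*. Besides *Ren1*, TATAAA was found in the windows of *Agt*, *Ace* and *Enpep*, in the last 2 on the minus strand.

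*Agt*, the angiotensinogen gene, was at 0.365 FPKM or less in 8 of 9 libraries, and its highest value came with liver transcripts. The FPKM was 0.143, 0.224 and 0.234 in WT, 0.254, 2.98 and 0.208 in HET, and 0.220, 0.365 and 0.139 in MUT. HET-2, at 2.98 FPKM, was the library with the liver markers. *Alb*, which encodes albumin, was at 244 FPKM there and at 0.213 to 4.77 FPKM in the other libraries, and 6 erythroid markers summed to 3466 FPKM against 1906 to 2284 FPKM. Liver is the main source of angiotensinogen. The part of liver RNA in the HET-2 value was not tested. *Agt* stayed under the minimum of 5 FPKM and was in no fit with that minimum, and no ratio is drawn from it. The locus lies on chromosome 8 from 124556587 to 124569707 (minus strand).

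*Ace*, the angiotensin-converting enzyme, was at a similar low level in the 3 genotypes and varied more within than between them. The FPKM was 8.55, 5.51 and 5.23 in WT, 5.39, 6.67 and 3.06 in HET, and 7.54, 9.09 and 4.54 in MUT, with means of 6.43±1.84, 5.04±1.83 and 7.06±2.31. All pairs of genotypes overlapped, and the log2 difference was 0.42±0.26 for MUT against HET, 0.10±0.24 for MUT against WT and -0.32±0.25 for HET against WT. *Ace* was lowest in HET-3 and MUT-3. In the same libraries the sum of 10 proximal tubule markers was 105 and 112 FPKM, against 135 to 194 FPKM in the other 7 libraries. A sum of 8 podocyte markers was 162 FPKM in each of them and 176 to 264 FPKM elsewhere. *Ace* lies on chromosome 11 from 105965607 to 105989964 (plus strand).

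*Enpep* encodes aminopeptidase A, which turns angiotensin II into angiotensin III. It was at 52.6, 52.3 and 66.0 FPKM in WT, 48.8, 45.3 and 49.2 in HET, and 50.6, 54.5 and 45.5 in MUT. The HET libraries lay below all WT libraries, with means of 47.8±2.18 and 57.0±7.82, a ratio of 0.838 and a log2 difference of -0.24±0.13, which was -0.13 without WT-3. MUT, at 50.2±4.49 FPKM, overlapped both, with log2 differences of -0.18±0.14 from WT and 0.07±0.11 from HET. The gene lies on chromosome 3 from 129269177 to 129332749 (minus strand).

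*Mme* encodes neprilysin, which cuts angiotensin I to angiotensin 1-7. Its FPKM was 24.2, 20.4 and 32.0 in WT, 15.4, 14.7 and 21.6 in HET, and 19.4, 27.7 and 16.9 in MUT, with means of 25.6±5.93, 17.2±3.79 and 21.3±5.64. HET was lower than WT in 8 of the 9 pairs of libraries, but HET-3 exceeded WT-2, so the groups overlapped (ratio 0.673, log2 difference -0.54±0.18). MUT overlapped both, at -0.26±0.20 from WT and 0.28±0.18 from HET. *Mme* lies on chromosome 3 from 63295435 to 63383713 (plus strand). For *Ace*, *Enpep* and *Mme* alike, the mean was lowest in HET. The proximal tubule markers summed to 149 to 187 FPKM in WT, 105 to 167 in HET and 112 to 194 in MUT, and their part in these levels was not tested.

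**Figure D2:**
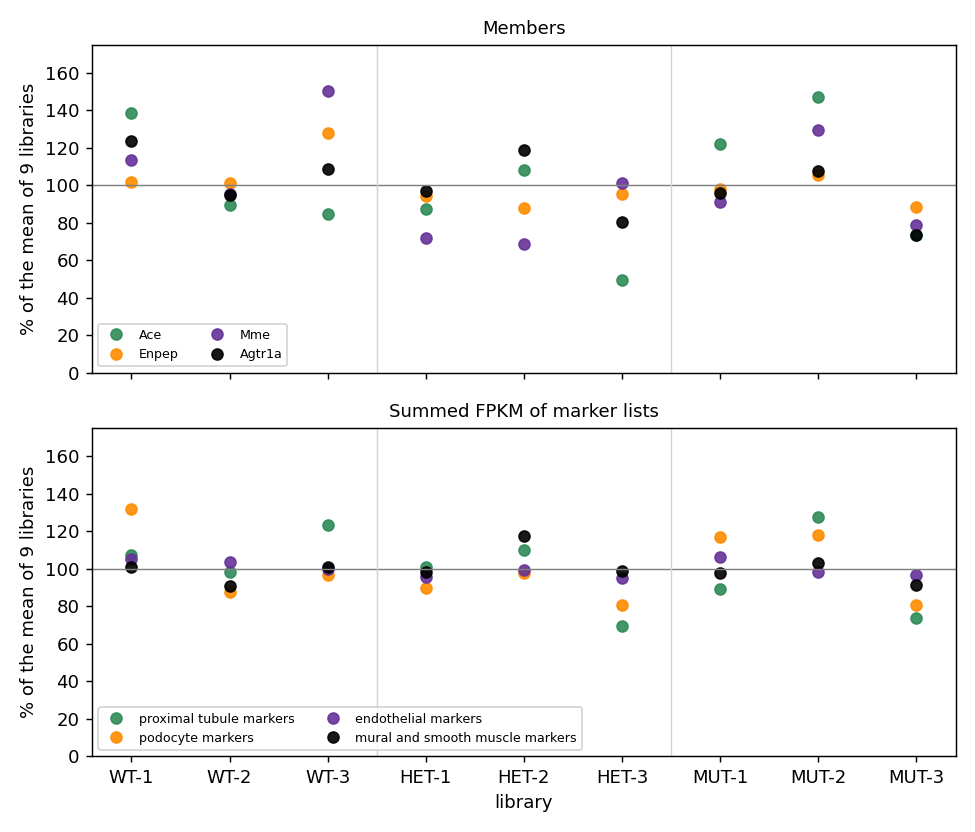
Levels in each library (horizontal axis) as a percentage of the mean of the 9 libraries (vertical axis), for *Ace*, *Enpep*, *Mme* and *Agtr1a* (top) and for the summed FPKM of 4 marker lists (bottom). HET-3 and MUT-3 had the lowest *Ace*, at 49.6% and 73.6% of the mean, and the lowest proximal tubule sums, at 69.2% and 73.8%.

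*Agtr1a*, the main angiotensin II receptor gene of the rodent kidney, differed little between genotypes. It was at 6.88, 5.26 and 6.04 FPKM in WT, 5.38, 6.61 and 4.48 in HET, and 5.33, 5.97 and 4.09 in MUT. All pairs of genotypes overlapped, with means of 6.06±0.807, 5.49±1.07 and 5.13±0.960 and log2 differences of -0.13±0.17 for HET against WT, -0.21±0.17 for MUT against WT and -0.08±0.17 for MUT against HET. The paralog *Agtr1b*, the other mouse type 1 receptor gene, was at 0.170 to 0.351 FPKM, so nearly all type 1 receptor RNA per length came from *Agtr1a*. *Agtr1a* lies on chromosome 13 from 30336356 to 30382867 (plus strand).

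*Agtr2*, the type 2 receptor gene, which is abundant in fetal mesenchyme, was at a higher level per length than *Agtr1a* in all 9 libraries. Its FPKM was 30.9, 30.2 and 36.2 in WT, 25.6, 35.4 and 41.5 in HET, and 31.8, 35.7 and 33.3 in MUT. The means were 32.5±3.29, 34.2±8.02 and 33.6±1.97, all groups overlapped, and the log2 differences from WT were 0.05±0.17 for HET and 0.05±0.12 for MUT. HET libraries held both the lowest and the highest value. *Agtr2* is on the X chromosome, from 21484624 to 21488833 (plus strand). HET-3, with *Xist*, had the highest *Agtr2* of all libraries, while MUT-1, the other library with *Xist*, had the lowest of the 3 MUT values.

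*Atp6ap2*, also on the X chromosome, from 12587759 to 12617051 (plus strand), encodes an accessory part of the vacuolar proton pump that also binds renin and prorenin. It was at 43.3, 43.5 and 52.6 FPKM in WT, 44.2, 43.1 and 47.1 in HET, and 44.1, 50.1 and 42.9 in MUT. The means of 46.5±5.33, 44.8±2.06 and 45.7±3.86 differed by less than the spread in any pair of genotypes, with log2 differences from -0.05 to 0.03 and standard errors of 0.11 to 0.13. HET-3 and MUT-1 lay within the range of the libraries without *Xist*.

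The 3 genotypes were then compared over all loci whose mean reached 5 FPKM in 1 or both genotypes, by limma on log2(FPKM + 1) with Benjamini-Hochberg adjustment, and 8 of the 9 genes passed that minimum in each comparison. No locus had an adjusted p under 0.05. This was 0.0% of 10081 loci for MUT against HET, 0.0% of 10096 for MUT against WT and 0.0% of 10105 for HET against WT, and an unadjusted p under 0.05 was found for 636, 65 and 108 loci. None of the 9 genes was thus called, and no difference described here passed a test across all loci. The libraries of MUT lay below all those of HET for 1 of 8 genes, *Akr1b7*, where 4.5% of all loci did so. MUT lay below WT for *Ren1* and *Akr1b7*, where 1.34% of loci did so, and HET below WT for *Ren1* and *Enpep*, against 1.06% of loci. The genes were selected on these values, so nothing is read from the counts. The median log2 difference over the 8 genes was 0.01 for MUT against HET, -0.19 for MUT against WT and -0.28 for HET against WT, and the medians over all tested loci were -0.02, -0.00 and 0.01. In the same order the medians were 0.02, -0.30 and -0.24 over the proximal tubule markers tested. Those over the podocyte markers tested were 0.19, 0.05 and -0.20. A shift particular to the 8 genes is therefore not read from their medians.

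**Figure D3:**
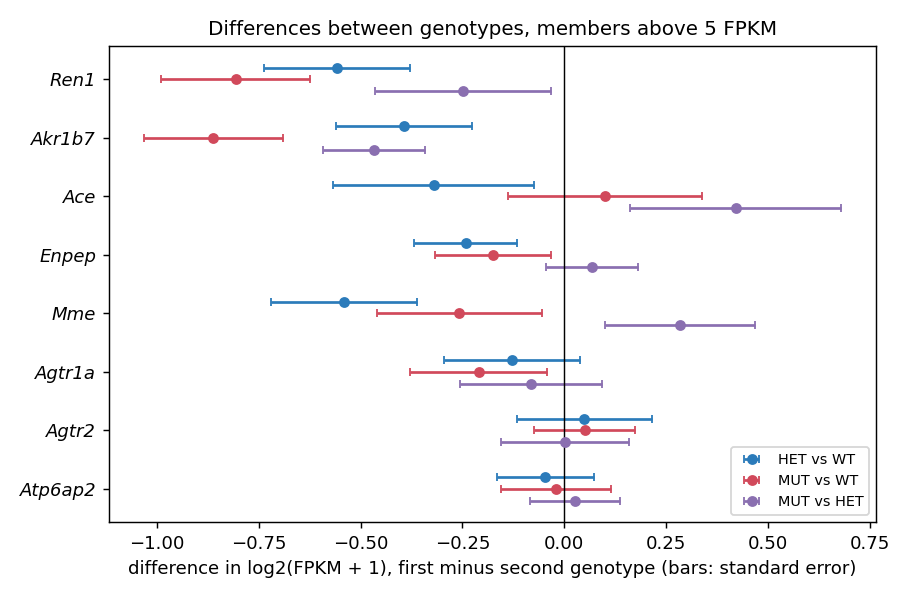
Difference in log2(FPKM + 1) between genotypes (horizontal axis) for the 8 genes above 5 FPKM (rows), with points for the first minus the second genotype and bars for the standard error of limma (n=3 libraries per genotype). *Ren1* and *Akr1b7* are at -0.81 and -0.86 for MUT against WT, and *Agtr2* and *Atp6ap2* lie from -0.05 to 0.05 in each comparison.

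The genes around the 9 were measured for the same comparisons. Of 24 other genes of angiotensin processing, receptors and mineralocorticoid response, all were in the table, 14 passed the minimum, and 0 were called in any comparison by limma. At an unadjusted p under 0.05 there were 0, 0 and 1 of them for MUT against HET, MUT against WT and HET against WT. In MUT against HET 5 had a positive and 9 a negative difference, in MUT against WT again 5 and 9, and in HET against WT 8 and 6, with medians of -0.04, -0.04 and 0.01. The most abundant were *Atp6ap1*, another accessory part of the proton pump, at 61.7±0.922 FPKM in WT, 62.3±1.27 in HET and 59.5±1.77 in MUT, *Ctsb*, the protease cathepsin B, at 54.0±6.20, 57.7±2.74 and 52.6±4.87, and *Dpp3*, which degrades angiotensin peptides, at 36.8±4.66, 38.3±2.46 and 36.6±3.62. The MUT libraries lay below HET for 1 of the 14, *Atp6ap1*, and above HET for 1, against 4.5% and 5.19% of all loci. They lay below WT for 1, again *Atp6ap1* (1.34% of all loci), and HET lay below WT for 1 (1.06%). Its highest MUT value was 60.5 FPKM, against lowest values of 60.9 in HET and 60.7 in WT. Nothing is read from these single genes. *Mas1*, the receptor of angiotensin 1-7, was at 0.0861 FPKM or less, and *Cma2* and *Mrgprd* were listed at 0 in all libraries.

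**Figure D4:**
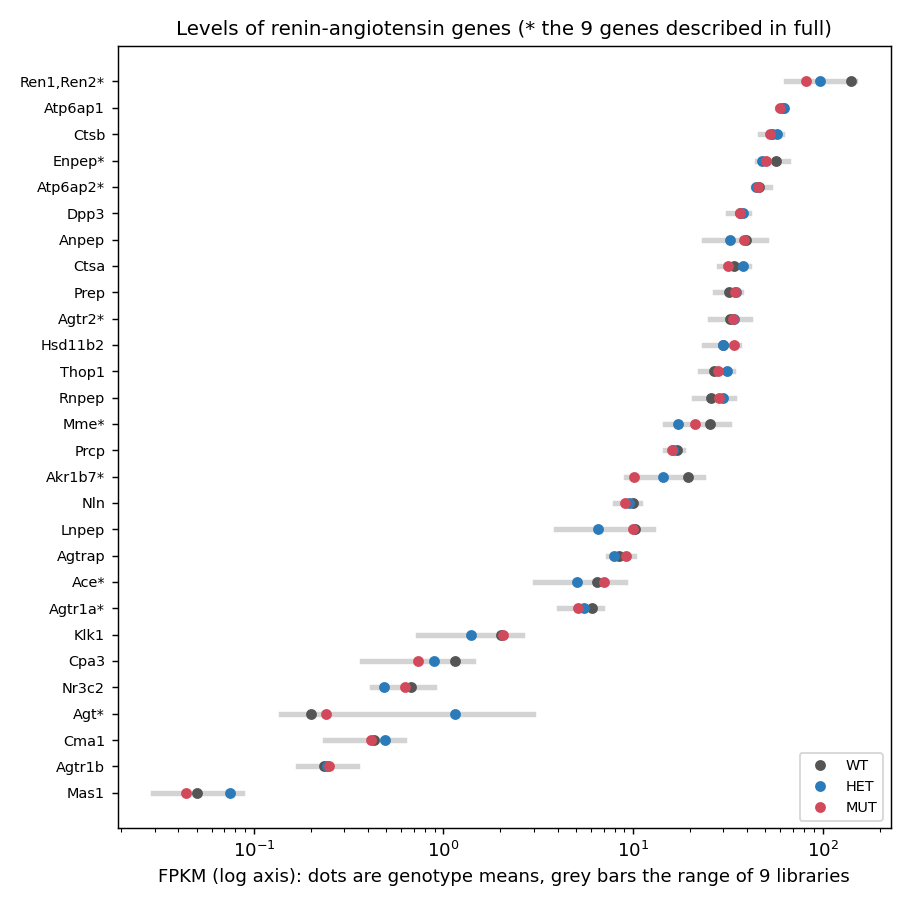
FPKM (log axis) of renin-angiotensin genes (rows, ordered by mean), with dots for the means of WT, HET and MUT (n=3 each) and grey bars for the range of the 9 libraries. *Ren1*, listed with *Ren2*, is the highest at 64.3 to 149 FPKM, and *Agt*, *Agtr1b* and *Mas1* are among the lowest, with means over the 9 libraries under 1 FPKM.

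Of 32 regulators of the renin gene and of renin cells, all were in the table and 25 passed the minimum. None was called by limma, with 4, 1 and 1 at an unadjusted p under 0.05 in MUT against HET, MUT against WT and HET against WT. The differences were positive for 18 and negative for 7 in MUT against HET, 16 and 9 in MUT against WT, and 9 and 16 in HET against WT, with medians of 0.10, 0.06 and -0.03. *Gnas*, whose product couples receptors to cAMP, the main stimulus of renin, was at 876±97.1 FPKM in WT, 966±78.3 in HET and 916±44.1 in MUT. *Prkar1a*, a regulatory part of the cAMP-dependent kinase, was at 136±5.82, 134±0.630 and 141±9.94 FPKM, and the nuclear receptor gene *Nr2f6* at 78.4±4.69, 80.8±11.9 and 92.6±14.5 FPKM. All genotypes overlapped for these 3 genes. The MUT libraries lay below WT for 2 of the 25, *Foxd1* and *Gja5*, where 1.34% of all loci did so. The HET libraries lay below WT for the same 2, against 1.06% of all loci. Neither genotype lay above WT for any of the 25, where 133 of 10096 loci did so for MUT and 217 of 10105 for HET. Against HET, the MUT libraries lay above for 4 of the 25, *Crebbp*, *Rxra*, *Nfix* and *Foxd1*, where 5.19% of all loci did so. They lay below HET for 0 of the 25, against 4.5% of all loci. *Tbx18*, under the minimum, lay above WT in both, at 3.48 FPKM or less in WT, at least 3.83 in HET and at least 3.54 in MUT. These genes are named after their values were seen. *Foxd1* was at 31.0±4.46 FPKM in WT, 21.1±0.801 in HET and 23.9±1.22 in MUT. Every HET and MUT kidney carries the insertion in 1 copy of *Foxd1*. Its place below WT therefore cannot be told apart from the insertion, and nothing is read from the 2 counts that include it. *Gja5*, the connexin 40 gene of endothelial and renin cells, was at 9.07±0.341, 8.23±0.353 and 7.47±0.930 FPKM, with log2 differences from WT of -0.13±0.11 and -0.25±0.13 (limma adjusted p = 0.998 and 1.00).

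Each of the 9 genes was also set beside the 9978 loci with a mean of at least 5 FPKM over all 9 libraries, by Pearson correlation of log2(FPKM + 1), as a description over points that share genotype and library. The loci most like *Ren1* included *Car15* (r=0.920), a carbonic anhydrase gene, and *Tmem52b* (0.872). Those most like *Akr1b7* were *Gsr* (0.897), which encodes glutathione reductase, *Rtn4ip1* (0.889) and a locus whose name the table gives as a date (0.879). *Agt* went with *Apoa2* (0.990), *S100a8* (0.989) and *Trf* (0.987), where HET-2 sets the value. *Ace* went with *Gpc4* (0.968) and with *Hnf4a* (0.962) and *Anpep* (0.950), a transcription factor gene and a brush border peptidase gene of the proximal tubule. *Agtr1a* went with *Tmem25* (0.964) and the phosphate transporter gene *Slc34a1* (0.928) of the proximal tubule. *Enpep* went with *Dpp4* (0.982), another membrane peptidase gene, *Nars2* (0.963) and *Manba* (0.937), and *Mme* with *Il1rap* (0.983), *Sh3bgrl2* (0.971) and *Arhgap29* (0.965). *Agtr2* was closest to *Postn* (0.892), the periostin gene of mesenchyme, *Cep76* (0.876) and *Lcp1* (0.847), and *Atp6ap2* to *Snap23* (0.979), *Sec62* (0.968) and *Rnft1* (0.967).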

How the data were processed

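Whole-kidney mRNA at E15.5 was sequenced from 3 kidneys of each of 3 genotypes. After STAR alignment and Cufflinks assembly, the authors deposited Cuffdiff FPKM for 24138 loci, of which 355 join several names. Their processing notes name mm10, and tool versions are not given in the sources used here. FPKM are scaled to the library, so depth is unknown. Means pooled by genotype (3 columns) were not used.

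For loci whose mean reached 5 FPKM in 1 or both genotypes, log2(FPKM + 1) was fitted by limma 3.58.1 (R 4.3.3; lmFit, eBayes with a trend), with only the genotypes compared in a fit, two-sided, with Benjamini-Hochberg adjustment at 0.05. Differences on this scale understate the change of low genes. The same step was run on simulated data with independent noise, as a check of the code. Nothing is read from that run about differences of the size described here. Tables used Python 3.11.15 and pandas 2.3.3.

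The members, gene lists and comparisons were chosen with earlier results of these data known. Beyond the 9 genes, those named are the 3 most abundant of each pathway list and any called, paralogs, the 3 loci most like each gene and marker genes, unless said otherwise. Alternatives were pseudocounts of 0.1 and 3 FPKM, a minimum of 1 FPKM or none, median-ratio scaling, 1 fit of 9 libraries, a replicate block and each library left out, and leaving out libraries with *Xist* above 10 FPKM was added after seeing the data. Promoter windows are from RefSeq (GRCm38.p6). A few genes within these rules are not reported here.

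Replicate numbers were not taken as pairs. Libraries of a genotype correlated at 0.939 to 0.982 and no library was a copy of another.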

Additional observations from a re-analysis of the deposited data

How the results depend on the processing

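Over 336 alternative values of the log2 differences of the 8 genes above 5 FPKM, 320 kept their sign and 16 changed it. All of the latter were for *Ace*, *Agtr1a*, *Agtr2* or *Atp6ap2*. A lower minimum or none, 1 fit of 9 libraries and the replicate block cannot change these differences of means, so their agreement was fixed in advance. No value moved by over 1 s.d. between replicates, but leaving out 1 of 3 libraries cannot exceed that limit. These counts therefore do not measure robustness. *Ren1* ranged from -1.01 to -0.65 for MUT against WT, from -0.69 to -0.33 for HET against WT and from -0.47 to -0.09 for MUT against HET, and *Akr1b7* from -1.05 to -0.72, -0.58 to -0.25 and -0.57 to -0.39.

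With the replicate block, limma called 0 loci in each comparison, as without it, and 494, 201 and 233 loci had an unadjusted p under 0.05 for MUT against HET, MUT against WT and HET against WT. What a library number stands for is not given in the sources used here. Deviations of same-numbered libraries from their genotype means correlated at -0.32 to 0.06 for MUT and HET, -0.26 to 0.56 for MUT and WT and -0.19 to 0.17 for HET and WT. Not every library correlated best with its own number. With 3 libraries per genotype, these values cannot decide whether the numbers mark pairs.

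Leaving out 1 library gave 0 to 3 called loci in each comparison, mostly small RNAs. *Akr1b7* was 1 of the 3 called for MUT against WT without WT-1 (log2 difference -1.05), which is no independent evidence since the gene was chosen with these values known. Without the *Xist* libraries 1 locus, *Mir7-1*, was called for HET against WT, and the other settings gave 0. Of the other pathway genes 0 were called in any setting. With 3 libraries per genotype and depth unknown, small differences cannot be resolved.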
